A study of Mus musculus with 16 samples.

Results

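The intersectin transcripts are the 15 rows of the transcript table that carry the gene name Itsn1 or Itsn2, of 80137 transcripts in all. Itsn1 held 14 of them and Itsn2 held 1. Both genes were selected on earlier results of these mice, in which 1 transcript of Itsn1 was low in the learned helpless group. Those values chose the genes, so every comparison with that group below is a description without a test. Its Ctrl and NLH values entered that choice too, so no p is given for Itsn1-209 or for Itsn1 sums and shares that include it. Counts of called members were made over all 15 rows and include it. RNA came from the hippocampus of 16 male wild type C57BL/6 mice aged 3 months in 4 groups of 4 mice. The left and right hippocampus of each mouse were combined into 1 library. Homecage (HC) mice stayed in their cages without handling or behavioral testing and were not shocked. Control (Ctrl) mice had no induction session but were placed in the shuttle box without shocks. The next day they took 30 escape trials with foot shocks of 0.4 mA. Ctrl and HC thus differ by handling and the box as well as by the trials. The remaining 8 mice were given 180 inescapable shocks, also of 0.4 mA, and the same 30 trials 24 h later. The study divided them by their escape behavior in those trials into learned helpless mice (LH) and mice that were not helpless (NLH), so LH and NLH are outcomes of 1 treatment.

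Intersectins are scaffold proteins of the endocytic machinery. Their EH domains bind adaptors of clathrin-coated pits such as epsins, and their SH3 domains bind dynamin, synaptojanin and actin regulators. In neurons Itsn1 takes part in the recycling of synaptic vesicles. The gene is spliced into a short form that ends after the SH3 domains and a long form that adds a guanine nucleotide exchange module for Cdc42, a small GTPase that directs actin assembly, and a C2 domain. Itsn2 is the closely related second gene of the family.

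Values are FPKM, in which the fragment count of each transcript is divided by its effective length and library depth. The effective length is about the transcript length less the fragment length. Depth was estimated from the steps between low FPKM values, and came to 20900000 to 29100000 fragments for LH, against 32300000 to 35200000 for HC, 29600000 to 39100000 for Ctrl and 27800000 to 38800000 for NLH. The 2 LH libraries of replicates 3 and 4 stood apart, with 10846 and 15504 transcripts listed at 0 against 4872 to 7352 in the other libraries. The 6 markers of hippocampal neurons were all present, with a summed level of 50.9 to 76.9 FPKM. The 6 striatal markers summed to 7.53 to 18.3 FPKM, the 5 choroid plexus markers to 1.45 to 76.0 FPKM and the 4 hemoglobin genes to 144 to 459 FPKM. Of the 4 groups, LH had the widest range in each of the 9 marker lists. The part of depth or of these cells in the values below was not tested. In bulk tissue, fewer cells of a type and less RNA per cell cannot be told apart.

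All 15 transcripts were matched in GENCODE vM21 (GRCm38). Itsn1 (ENSMUSG00000022957.19) lies on the plus strand at chr16:91729281-91920597 and Itsn2 (ENSMUSG00000020640.9) on the plus strand at chr12:4592638-4713962. The table calls all 15 rows protein coding, after their gene. By the annotation of each transcript, the 14 Itsn1 rows are 7 protein coding transcripts, 5 retained introns, 1 nonsense-mediated decay transcript and 1 processed transcript without a coding sequence. The processed transcript is Itsn1-209 (ENSMUST00000124094.7), the one for which the genes were selected. It is 442 bases long and has 5 exons. Its first exon of 66 bases, chr16:91804622-91804687, lies in an intron of the coding forms, 1490 bases after a coding exon. The retained intron Itsn1-226 (ENSMUST00000156841.1, 355 bases) starts inside this exon, at chr16:91804636, and shares its end. The 4 later exons of Itsn1-209 overlap exons of the coding forms.

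**Figure D1:**
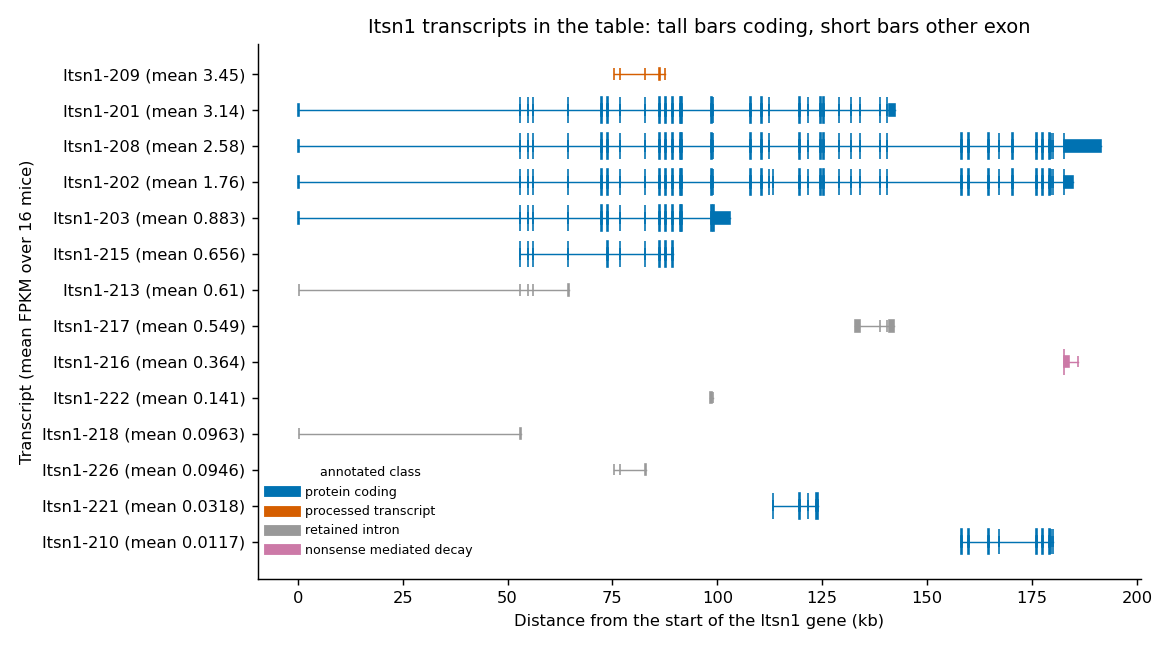
Exons of the 14 Itsn1 transcripts in the table, drawn to scale by distance from the start of the gene in kb, with a minimum line width, and ordered by mean FPKM over 16 mice. Itsn1-209 covers a short stretch inside the coding forms, Itsn1-201 stops before the exons that only long transcripts hold, and Itsn1-203 stops earlier still.

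The sequences that set these transcripts apart are short. They are given from the GENCODE vM21 transcripts, 5′ to 3′ on the plus strand. The first pair shows the start of Itsn1-209 beside Itsn1-202 (ENSMUST00000064797.11), a long coding form. Capitals mark the exon that differs, and lower case marks the next exon, chr16:91806093-91806193, which both hold. The exon labelled as the own exon of Itsn1-209 is absent from the coding forms, but Itsn1-226 starts within it.
Itsn1-209, own first exon: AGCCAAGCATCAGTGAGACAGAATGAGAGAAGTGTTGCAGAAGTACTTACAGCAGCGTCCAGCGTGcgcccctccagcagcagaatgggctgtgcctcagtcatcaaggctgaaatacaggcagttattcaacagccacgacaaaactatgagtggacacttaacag
Itsn1-202, coding exon chr16:91803035-91803131: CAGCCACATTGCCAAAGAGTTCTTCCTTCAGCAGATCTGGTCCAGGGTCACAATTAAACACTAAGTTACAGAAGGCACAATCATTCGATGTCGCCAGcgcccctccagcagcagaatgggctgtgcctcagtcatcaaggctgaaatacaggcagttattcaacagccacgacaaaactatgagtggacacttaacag
The second set shows where the coding forms part. The short form, Itsn1-201 (ENSMUST00000056482.13), has 3639 coding bases and ends with a stop codon, in capitals, after chr16:91869808. The long form Itsn1-208 (ENSMUST00000114002.8), with 5142 coding bases, joins the same place to its next exon at chr16:91887400-91887521, of which the first 30 bases are in capitals.
Itsn1-201, end of the short form: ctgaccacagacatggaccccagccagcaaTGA
Itsn1-208, long form at the same place: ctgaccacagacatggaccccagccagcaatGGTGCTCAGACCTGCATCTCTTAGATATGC
The other long form, Itsn1-202, differs from Itsn1-208 by an exon of 15 bases at chr16:91842628-91842642, in capitals, and has 5157 coding bases. This microexon lies in the part of the gene that encodes the first SH3 domain and is known as an exon used in neurons.
Itsn1-202, 15-base exon: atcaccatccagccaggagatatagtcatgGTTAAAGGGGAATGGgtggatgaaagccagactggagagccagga
Itsn1-203 (ENSMUST00000095909.9) has 1863 coding bases. It reads past the end of an exon at chr16:91828333, and its own 42 coding bases and stop codon are in capitals.
Itsn1-203, end of the truncated form: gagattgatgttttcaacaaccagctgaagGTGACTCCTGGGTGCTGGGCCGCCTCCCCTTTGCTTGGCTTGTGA

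Itsn1-209 was listed with 4.07, 6.47, 3.31 and 8.69 FPKM in the 4 HC mice. The 4 Ctrl mice had 4.94, 6.00, 8.61 and 1.28 FPKM. The NLH mice had 1.84, 1.86, 2.79 and 5.30 FPKM. HC, Ctrl and NLH overlapped, with Ctrl replicate 4 the lowest of these 12 mice. All 4 LH mice were listed under 0.001 FPKM, the highest at 1.75e-05 and replicate 3 at 0, so LH did not overlap Ctrl or NLH. Itsn1-209 was the only one of the 15 members whose LH values did not overlap Ctrl, and again the only one against NLH. Over all transcripts, 5.85% did not overlap between LH and Ctrl and 3.18% between LH and NLH, and nothing is read from the members' counts because this contrast chose the genes. On the log2(FPKM + 0.1) scale the difference was -5.46 for LH against Ctrl and -4.80 for LH against NLH, sizes that depend on the added constant. In the LH libraries 3 fragments of this transcript would be worth 0.697, 0.827, 0.836 and 0.970 FPKM, and each of the other 12 mice was above these values. For LH replicates 3 and 4 these floors are rough, since only 33.3% and 51.7% of their values for loci of 400 to 500 bases fell within 0.1 of a whole fragment, where chance gives 20%.

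Itsn1-209 had 5.21 ± 3.04 FPKM in Ctrl and 5.64 ± 2.44 FPKM in HC (SD, n = 4), and the ranges overlapped. NLH mice had 2.95 ± 1.63 FPKM (SD, n = 4), a difference of -0.66 from Ctrl on the log2 scale, with the 2 groups overlapping through Ctrl replicate 4 and NLH replicate 4.

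Itsn1-209 made up 27.6% to 45.9% of the Itsn1 FPKM sum in HC, 9.97% to 45.0% in Ctrl and 13.1% to 34.3% in NLH. FPKM divides by effective length, here estimated at 138 to 163 of the 442 bases, so a transcript this short weighs little in fragments. By the estimated depth, it held 16.4 to 47.2 fragments in HC, 7.30 to 46.0 in Ctrl and 7.56 to 32.5 in NLH. That was at most 2.15% of the estimated Itsn1 fragments in any mouse. The 14012 bases of Itsn1-208 took 40.3% to 57.0% of them.

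Itsn1-215 (ENSMUST00000135057.1) is a partial coding transcript of 1110 bases, chr16:91782161-91818629, that holds 3 whole exons of Itsn1-209 and the whole of its last one. Its FPKM in LH was 3.11, 2.40, 1.30 and under 0.001 in replicates 1 to 4. In NLH it was 1.48 in replicate 2, 0.612 in replicate 3 and under 0.001 in the other 2 mice. The 8 HC and Ctrl mice had 0.732 at most. The highest 2 values were LH mice, NLH replicate 2 lay above LH replicate 3, and LH replicate 4 was near 0, so LH overlapped each other group. The sum of Itsn1-209 and Itsn1-215, chosen after their values were seen, was 3.11, 2.40, 1.30 and under 0.001 FPKM in LH, 1.84 to 5.30 FPKM in NLH, 1.48 to 8.79 FPKM in Ctrl and 3.48 to 8.95 FPKM in HC. This sum overlapped between LH and each of Ctrl and NLH but not between LH and HC. How fragments of shared exons were divided between the 2 transcripts was not tested.

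**Figure D2:**
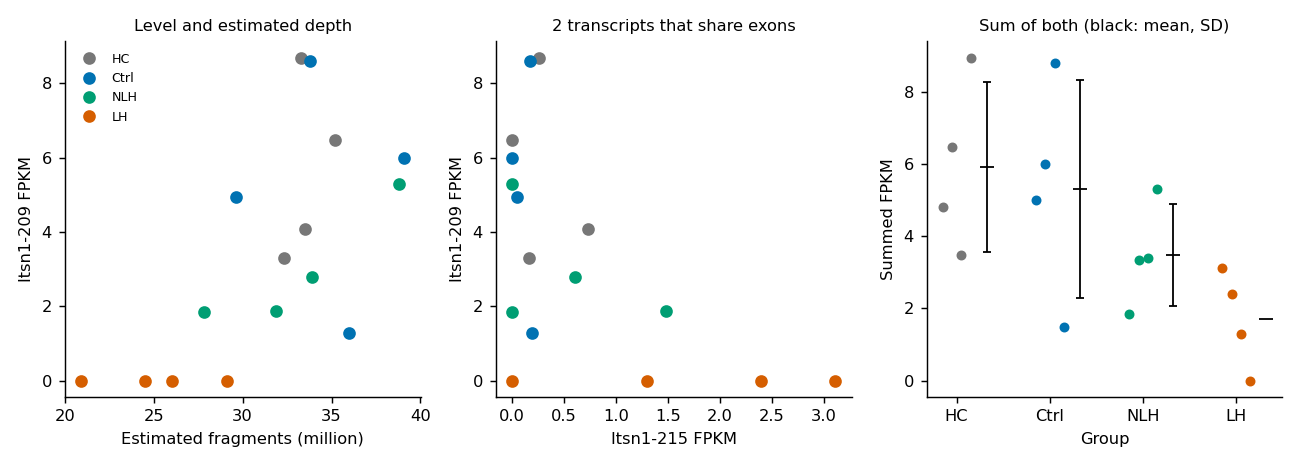
Left, Itsn1-209 FPKM against the estimated fragment depth of each library. Middle, Itsn1-209 FPKM against Itsn1-215 FPKM, and right, their sum by group, with points for mice and the mean and SD in black where no mouse is under 0.001. The 4 LH mice have the 4 lowest Itsn1-209 values, and LH replicates 2 to 4, at 20900000 to 26000000 fragments, lie below all 12 other libraries in depth, while LH replicate 1 (29100000) lies above the lowest NLH library (27800000).

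The 4 coding forms with a mean of at least 0.5 FPKM and a start at the beginning of the gene were present in every mouse. The short form Itsn1-201 had 2.81, 2.43, 2.92 and 3.13 FPKM in HC and 3.25, 3.26, 3.56 and 3.14 FPKM in Ctrl. Every Ctrl mouse lay above every HC mouse, yet the difference of 0.22 on the log2 scale (SE 0.17) did not pass the test (limma, adjusted p = 1, unadjusted p = 0.202). With only the 8 mice of this comparison in the fit the unadjusted limma p was 0.0306, and the unmoderated test on FPKM that the study used also called it. NLH mice had 3.25, 3.55, 4.06 and 3.03 FPKM, and LH mice 3.50, 3.70, 2.01 and 2.60 FPKM. LH replicates 3 and 4 were below all Ctrl and NLH mice, and replicates 1 and 2 within or above them.

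The long form Itsn1-202, which holds the 15-base exon, had 1.08, 1.01, 0.886 and 1.63 FPKM in HC and 1.89, 2.01, 1.75 and 1.45 FPKM in Ctrl. It was higher in Ctrl by 0.61 on the log2 scale with an SE of 0.26 (limma, unadjusted p = 0.0372, adjusted p = 1), with 1 HC mouse above the lowest Ctrl mouse. The unadjusted p rose above the threshold when any of Ctrl replicates 1, 2 or 3 or HC replicates 1, 2 or 3 was left out, to 0.102 at most, and was 0.0627 with a replicate block. NLH mice had 1.32, 2.50, 2.67 and 2.85 FPKM, with 3 of 4 above all Ctrl mice, and the difference from Ctrl was not called (limma, adjusted p = 0.996). Without NLH replicate 1 the unadjusted p was 0.0313. LH mice had 2.44, 1.81, 1.74 and 1.11 FPKM and overlapped both groups.

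The long form without that exon, Itsn1-208, had 2.46, 2.22, 1.66 and 2.09 FPKM in HC, and 2.26, 3.04, 2.58 and 2.66 FPKM in Ctrl. The difference of 0.32 (SE 0.16, log2 scale) was not called (limma, adjusted p = 1, unadjusted p = 0.0719). It was called at an unadjusted limma p of 0.0431 with median-ratio size factors, 0.0299 without LH replicates 3 and 4, 0.0471 without Ctrl replicate 1 and 0.0418 without HC replicate 1. NLH mice had 2.60, 2.39, 2.75 and 2.16 FPKM. LH mice had 3.50, 3.85, 2.59 and 2.52 FPKM, of which replicates 1 and 2 lay above every other mouse. Of the FPKM of both long transcripts, the one with the 15-base exon took 30.5% to 41.1% in LH, 33.6% to 56.9% in NLH, 35.2% to 45.5% in Ctrl and 30.6% to 43.7% in HC. The group ranges overlapped.

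The truncated form Itsn1-203 varied little, with 0.762 to 1.02 FPKM in HC, 0.860 to 1.01 FPKM in Ctrl, 0.802 to 0.987 FPKM in NLH and 0.700 to 0.867 FPKM in LH. Its LH values were the lowest group of the 4 by mean (0.768 ± 0.0721 FPKM, SD, n = 4) but overlapped each other group. The retained intron Itsn1-217 (ENSMUST00000138117.1, 2818 bases) had 0.207 to 0.862 FPKM, both from LH mice. The retained intron Itsn1-213 (ENSMUST00000131983.7, 488 bases) was at most 1.02 FPKM in 15 mice and 6.15 FPKM in LH replicate 4, which was 44.1% of the Itsn1 sum of that mouse. The other 3 LH mice were under 0.001 FPKM for it.

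**Figure D3:**
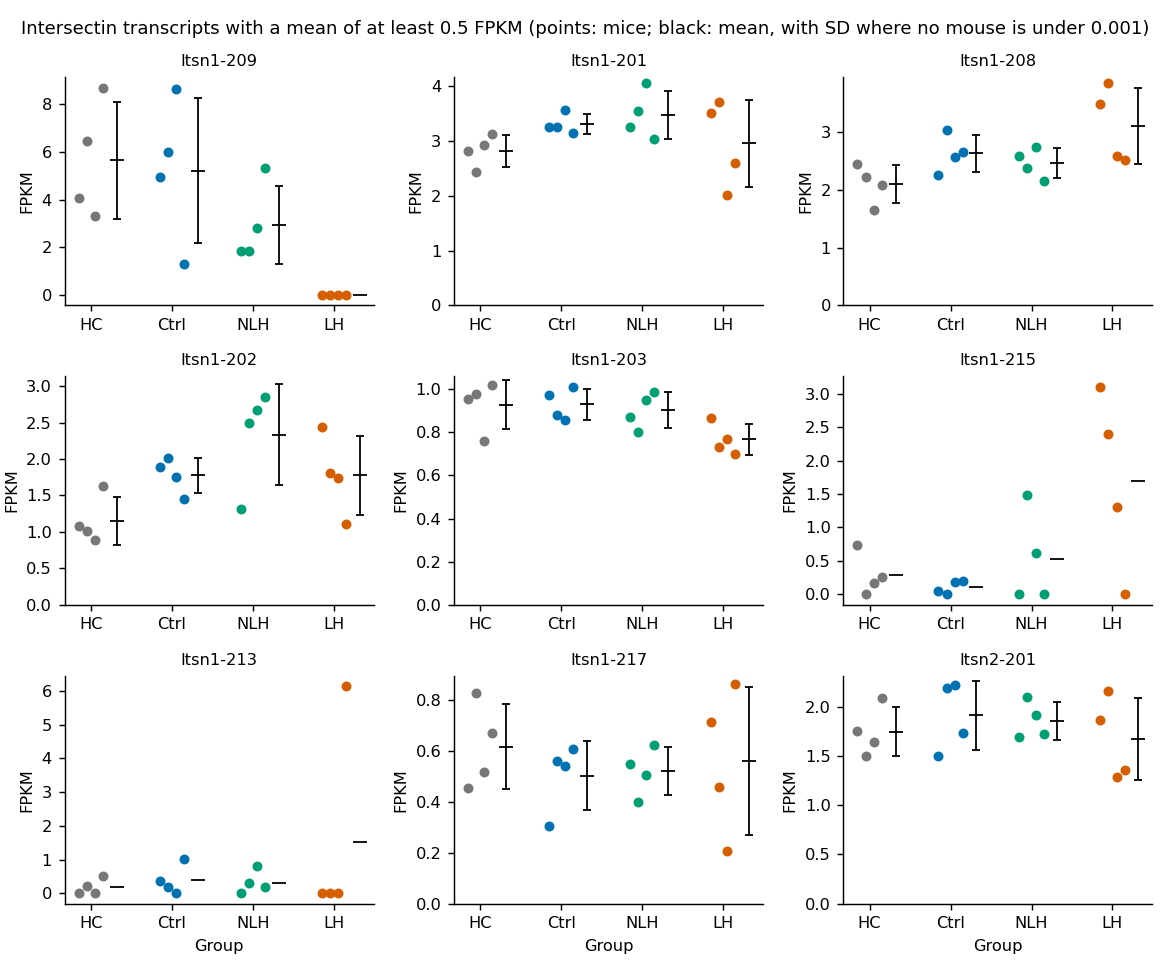
FPKM of the 9 intersectin transcripts with a mean of at least 0.5 FPKM, by group, with each mouse as a point and the mean and SD (n = 4) in black, the SD only where no mouse is under 0.001. Itsn1-209 is under 0.001 FPKM in all 4 LH mice, Itsn1-202 lies higher in Ctrl than in 3 of 4 HC mice, and Itsn1-213 is high in LH replicate 4 alone.

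The other 6 Itsn1 transcripts each averaged under 0.5 FPKM over the 16 mice, from 0.0117 to 0.364 FPKM. One of them, the retained intron Itsn1-218 (ENSMUST00000139890.1, 352 bases), was called lower in Ctrl than in HC (limma, unadjusted p = 0.0483, adjusted p = 1). It was listed at 0.439 and 0.773 FPKM in HC replicates 1 and 4 and at 0 in the other HC mice and all Ctrl mice, so no fold is given. The unadjusted p rose to 0.144 without HC replicate 1 and to 0.186 without HC replicate 4, and above 0.05 without any Ctrl mouse, any LH mouse or any of NLH replicates 1 to 3. The nonsense-mediated decay transcript Itsn1-216 (ENSMUST00000137575.1, 48 coding bases) reached 1.64 FPKM in HC and, in replicate 4 alone, 1.39 FPKM in Ctrl. Other Ctrl mice had 0.0625 FPKM at most. Itsn1-216 was under 0.001 FPKM in all 4 NLH mice and in 3 LH mice, with 0.956 FPKM in LH replicate 2. Its difference between NLH and Ctrl was not called (limma, unadjusted p = 0.226).

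Over all 15 members, 2 were called between Ctrl and HC at an unadjusted limma p under 0.05, 1 higher (Itsn1-202) and 1 lower (Itsn1-218). The share over all transcripts was 3.45%. After adjustment 0 members passed, beside 0.00374% of all transcripts. Between NLH and Ctrl 0 members were called (5.12% of all transcripts), 0 after adjustment (0.0125% of all transcripts), and the unmoderated test on FPKM also called 0, beside 7.2% of all transcripts. For Ctrl against HC that test called 2 members, Itsn1-202 and Itsn1-201, beside 6.68% of all transcripts. The median difference of the members was 0.01 for Ctrl against HC and 0.06 for NLH against Ctrl, on the log2 scale. The count for Ctrl against HC was 0 without Ctrl replicate 2, and 1 without any of Ctrl replicates 1 and 3, HC replicates 1 and 3, NLH replicates 1 to 3 and LH replicates 2 to 4. With median-ratio size factors it was 4. The count for NLH against Ctrl was 1 without any of Ctrl replicate 3 or NLH replicates 1 and 4. It was also 1 without Ctrl replicate 4, but there the row was Itsn1-209, so nothing is read from it. Both comparisons share the Ctrl mice, and those mice also entered the contrasts that chose the genes.

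The Itsn1 sum was 13.7, 15.9, 12 and 18.9 FPKM in HC and 14.1, 16.1, 19.1 and 12.9 FPKM in Ctrl. It was 10.6, 14.3, 16 and 15.5 FPKM in NLH and 14.3, 13.9, 8.62 and 13.9 FPKM in LH. The 4 groups overlapped, and LH replicate 3 was the lowest mouse of all. The means were 15.1 ± 2.99 FPKM in HC, 15.5 ± 2.73 FPKM in Ctrl and 14.1 ± 2.43 FPKM in NLH (SD, n = 4). The LH mean was 12.7 ± 2.72 FPKM, with a difference of -0.30 from Ctrl and -0.16 from NLH on the log2 scale. Without LH replicate 3 the difference was -0.13 from Ctrl and 0.01 from NLH, and without LH replicates 3 and 4 it was -0.12 and 0.02. Without Itsn1-209, the sum was 8.71 to 10.2 FPKM in HC, 9.16 to 11.6 FPKM in Ctrl, 8.76 to 13.2 FPKM in NLH and 8.62 to 14.3 FPKM in LH. The means of that sum were 9.5 FPKM in HC, 10.3 FPKM in Ctrl, 11.1 FPKM in NLH and 12.7 FPKM in LH. The LH mean was thus the lowest with Itsn1-209 and the highest without it, and the groups overlapped both ways.

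**Figure D4:**
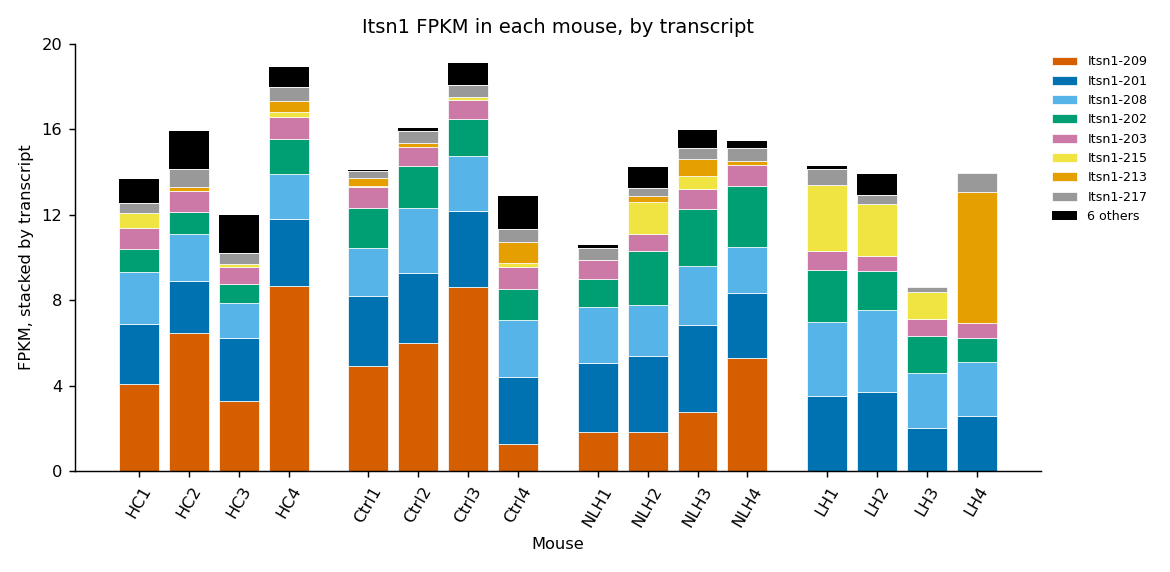
Itsn1 FPKM in each mouse, stacked by transcript, with the 6 transcripts under a mean of 0.5 FPKM joined in black. Itsn1-209 fills 9.97% to 45.9% of the bar in the 12 other mice and almost none of it in LH, where Itsn1-215 (replicates 1 to 3) or Itsn1-213 (replicate 4) is large.

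The long-form share is the percentage of the Itsn1 sum in the 3 transcripts whose coding sequence reaches the last coding exon. It was 27.8% ± 5.63 in HC, 31.7% ± 8.29 in Ctrl and 34.4% ± 1.88 in NLH (SD, n = 4). Ctrl overlapped both HC and NLH, and every NLH mouse lay above every HC mouse. In LH it was 41.5%, 47.6%, 50.2% and 26.0%, with 3 mice above every HC and NLH mouse and replicate 4 the lowest of the LH group. One of these 3 transcripts is the decay transcript Itsn1-216. Leaving it out was chosen after the values were seen and gave 21.7% ± 2.82 in HC, 28.8% ± 4.28 in Ctrl and 34.4% ± 1.88 in NLH (SD, n = 4). Every NLH mouse (32.4% to 36.9%) then lay above every Ctrl mouse (22.6% to 31.9%), and Ctrl overlapped HC. Both shares have Itsn1-209 in their denominator, whose Ctrl and NLH values entered the choice of the genes. As a share of the long and short coding forms alone, without Itsn1-209, the long forms took 58.2% to 68.3% in LH, 54.6% to 62.4% in NLH, 54.8% to 60.7% in Ctrl and 46.5% to 57.1% in HC. On that scale Ctrl overlapped HC and NLH, and LH overlapped Ctrl and NLH but lay above every HC mouse.

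Itsn2 had a single named row, Itsn2-201 (ENSMUST00000062580.7, 5987 bases, 4974 coding bases), so its share of the gene sum is not informative. Its level was 1.75, 1.5, 1.64 and 2.09 FPKM in HC and 1.5, 2.19, 2.22 and 1.73 FPKM in Ctrl. NLH mice had 1.69, 2.10, 1.91 and 1.72 FPKM and LH mice 1.86, 2.16, 1.29 and 1.36 FPKM. LH replicates 3 and 4 were the lowest of the 16 mice, and LH replicates 1 and 2 lay within the Ctrl range. Ctrl differed from HC by 0.11 and NLH from Ctrl by -0.03 on the log2 scale, within the spread of the mice (exact permutation test, p = 0.514 and p = 0.771). The LH difference was -0.20 from Ctrl and -0.17 from NLH, and without LH replicates 3 and 4 it was 0.09 from Ctrl and 0.11 from NLH. Without LH replicate 3 alone it was -0.09 and -0.06, and without LH replicate 4 alone -0.11 and -0.09.

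Assembled transcripts without a gene name lie at both loci and are not members by the rule. At Itsn1 there were 3, and the named rows held 83.9% to 92.1% of the FPKM of the locus. At Itsn2 there were 7, and the named row held only 12.3% to 22.3%. With them, the Itsn2 locus had 9.39 ± 0.451 FPKM in HC and 10.3 ± 0.261 FPKM in Ctrl (SD, n = 4). It had 10.8 ± 0.433 FPKM in NLH and 10.0 ± 0.636 FPKM in LH (SD, n = 4). On that sum NLH was higher than Ctrl by 0.07 (limma, log2 scale, adjusted p = 0.981), where the named row gave -0.03. Over all alternatives for this comparison the adjusted p ran from 0.949 to 1. In FPKM per locus the sum for Itsn1 (17.2 ± 3.04 in HC) was thus above that for Itsn2 in HC.

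Proteins that act with intersectins were followed through 49 genes in 5 classes, of which 47 were in the table (Syn1 and Syp were not found in it). FPKM was summed over the named transcripts of each gene. Between Ctrl and HC 2 of 47 were called, 1 higher and 1 lower, beside 2.7% of all gene sums. After adjustment 0 were called, as over all 18287 genes (0%). Between NLH and Ctrl 5 of 47 were called, all higher, beside 5.59% of all gene sums, and 0 after adjustment (0.00547% of all gene sums). The median difference of the 47 genes was 0.07 and 0.08 on the log2 scale, against 0.02 and 0.06 over all genes.

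The class for membrane fission, bending and uncoating held 3 of the 5 calls in NLH, of 11 genes tested, which is 27.3% beside the 5.59% of all gene sums. The class itself was not tested. Synj2, which encodes a phosphoinositide phosphatase of the synaptojanin family, had 3.38, 5.57, 4.69 and 4.22 FPKM in NLH and 2.02, 2.48, 2.38 and 2.63 FPKM in Ctrl. The groups did not overlap, and the difference was 0.87 on the log2 scale with an SE of 0.23 (limma, unadjusted p = 0.00182, adjusted p = 0.504). In HC it had 3.10, 5.05, 2.35 and 3.71 FPKM, from which Ctrl differed by -0.51 (limma, unadjusted p = 0.0420, adjusted p = 1). This call was lost under the unmoderated test on FPKM. The unadjusted limma p rose to 0.0564 with a replicate block, and above the threshold without any of Ctrl replicates 1 to 3 or HC replicates 2 and 4, to 0.168 at most. Both comparisons share the Ctrl mice. Sh3gl3, an endophilin that bends membranes, had 7.33, 7.18, 8.79 and 5.99 FPKM in NLH and 4.45, 5.36, 5.70 and 5.99 FPKM in Ctrl, 0.43 higher (limma, unadjusted p = 0.00502, adjusted p = 0.580). Pacsin1, a neuronal F-BAR protein, had 21.7, 27.8, 28.5 and 23.4 FPKM in NLH and 18.9, 21.8, 20 and 18.9 FPKM in Ctrl, 0.34 higher (limma, unadjusted p = 0.00712, adjusted p = 0.606). Dnm1, the neuronal dynamin that cuts vesicles from the membrane, was the most abundant gene of the class at a mean of 66.3 FPKM over the 16 mice, and Sh3gl1 the least at 3.16 FPKM. Neither was called by limma on all 16 mice, and Dnm1 was called for Ctrl against HC with only the 8 mice of the comparison and without LH replicates 3 and 4.

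Among early adaptors, Fcho1, an F-BAR protein of nascent coated pits, had 11.6, 9.54, 9.66 and 9.36 FPKM in NLH and 6.64, 8.69, 7.21 and 8.80 FPKM in Ctrl. The groups did not overlap, and NLH was 0.36 higher (limma, unadjusted p = 0.0184, adjusted p = 0.734). This call was lost without any of Ctrl replicates 1 and 3 or NLH replicate 1. Against HC (10.8, 10.1, 7.81 and 8.21 FPKM) the Ctrl difference was -0.23 and was not called (limma, unadjusted p = 0.110). Eps15, an EH-domain adaptor, was the most abundant of the class at 54.8 FPKM and Fcho2 the least at 2.20 FPKM. In the clathrin and AP2 class, Ap2b1, the beta subunit of the AP2 adaptor, had 4.13, 3.97, 4.83 and 3.61 FPKM in Ctrl and 3.97, 3.04, 2.29 and 3.13 FPKM in HC, 0.42 higher in Ctrl (limma, unadjusted p = 0.0262, adjusted p = 1). The unadjusted limma p was 0.0842 without Ctrl replicate 3 and 0.111 without HC replicate 3. It was also the least abundant gene of the class at a mean of 3.91 FPKM, and Cltc, the clathrin heavy chain, the most abundant at 85.7 FPKM. Aak1, a kinase of the AP2 adaptor, named after its value was seen, was 0.21 higher in NLH than in Ctrl (limma, unadjusted p = 0.0403, adjusted p = 0.850). The Aak1 call was lost without any of Ctrl replicates 1, 2 and 4, HC replicate 2 or NLH replicates 2 and 3.

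Of 11 actin and GTPase signalling genes and 4 synaptic vesicle genes, 0 were called by limma on all 16 mice at an unadjusted p under 0.05 in either comparison. With the unmoderated test on FPKM 4 signalling genes (Cbl, Cblb, Numb and Sos1, named after their values were seen) were called higher in Ctrl than in HC, among 5 of the 47 partner genes, beside 8.5% of all gene sums under that test. The fifth was Picalm, and neither Ap2b1 nor Synj2 was among them, so no partner gene was called by both that test and limma on all 16 mice for Ctrl against HC. For NLH against Ctrl it called 7 of 47, beside 9.57% of all gene sums. Cdc42, the GTPase that the long form activates, was the most abundant of the signalling class at 60.2 FPKM and Arhgap31 the least at 2.30 FPKM. Cdc42 had 65.3, 67.5, 74.9 and 54.0 FPKM in NLH and 51.9, 55.2, 55.4 and 57.1 FPKM in Ctrl, a difference of 0.24 on the log2 scale with an SE of 0.13 (limma, unadjusted p = 0.0693, adjusted p = 0.917). NLH replicate 4 lay within the Ctrl range and the other 3 NLH mice above it. The unadjusted limma p of Cdc42 was 0.0201 with median-ratio size factors, 0.0310 with only the 8 mice of the comparison, 0.0110 without LH replicates 3 and 4, 0.0464 without LH replicate 1, 0.0243 without LH replicate 4 and 0.0178 without NLH replicate 4. Pik3c2b was called with median-ratio size factors too, but lower in NLH. Its unscaled means were 2.44 FPKM in NLH and 2.86 FPKM in Ctrl. Snap25 and Snap23, SNARE proteins of vesicle fusion, were the most and the least abundant of the vesicle class, at 316 and 1.62 FPKM. The calls rested in part on single libraries. Between Ctrl and HC 0 partner genes were called without Ctrl replicate 3, and 1 without any of Ctrl replicates 1 and 2 or HC replicates 2 to 4. Without Ctrl replicate 1 only 3 were called between NLH and Ctrl, and without LH replicate 4, which enters the shared estimate of spread, 9 were. The share over all gene sums in that fit is not given, so the rise to 9 is not read as a result about the partner genes. With only the 8 mice of the comparison in the fit, 7 were called between Ctrl and HC (Ap2b1, Cbl, Dnm1, Numb, Picalm, Stx1a and Synj2), 6 of them higher, beside 8.73% of all gene sums in that fit. Cbl, Numb and Picalm were also called by the unmoderated test.

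**Figure D5:**
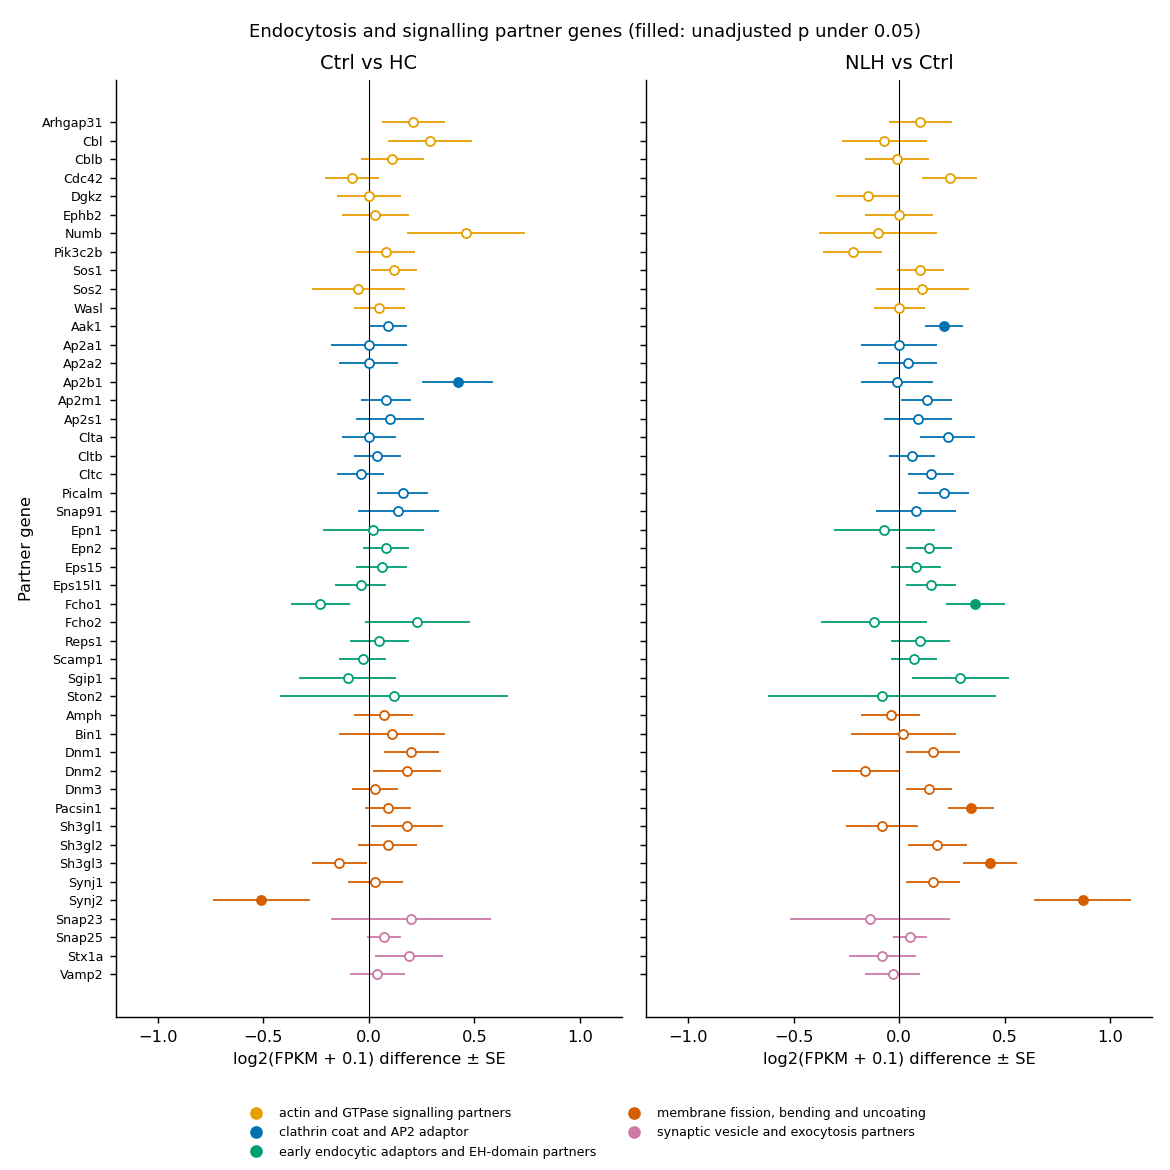
Differences on the log2(FPKM + 0.1) scale, with SE, of the 47 partner genes for Ctrl against HC (left) and NLH against Ctrl (right), colored by class and filled at an unadjusted limma p under 0.05. The 2 filled points on the left are Ap2b1 and Synj2, and the 5 on the right all lie above 0.

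The genes most like the Itsn1 sum over the 16 mice, by Pearson's r of log2(FPKM + 0.1) among 10435 genes with a mean of at least 1 FPKM, were Wdr24 (r = 0.874), Sugp2 (0.837), Atp8a2 (0.826), Nyap1 (0.825) and 2310022A10Rik (0.819). Those most like Itsn2 were Slc9a4 (0.932), Nos1 (0.926), Maea (0.914), Eef1a2 (0.896) and Nnat (0.890). The sums of Itsn1 and Itsn2 had an r of 0.629 with each other. Without LH replicates 3 and 4 these values fell to 0.661 to 0.800 for Itsn1, 0.814 to 0.884 for Itsn2 and 0.492 between both. All values of a mouse share its library and its depth. Itsn1-209 itself was chosen for its low LH values, so transcripts low in LH rank high in likeness to it and their LH levels are no separate match. Among 22594 transcripts, those most like Itsn1-209 were 2 assembled transcripts without a gene name (r = 0.925 and 0.903) and ENSMUST00000133903.1 of Rnf31, a subunit of a ubiquitin ligase (r = 0.896). Over the 12 mice outside LH, a choice made after the values were seen, these r were 0.700, 0.660 and 0.378.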

How the data were processed

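The deposited FPKM per transcript and mouse were used without scaling. Per the paper's methods, the authors aligned reads to mm10 with HISAT2, merged String Tie (v1.2.3) assemblies over all samples and quantified them with Cufflinks. The submitters' processing notes name STAR 2.42a in place of HISAT2. Whether strand was kept is not given in the sources used here. The tests used limma 3.58.1 in R 4.3.3 (data.table package, version 1.17.8). Its input was log2(FPKM + 0.1), for 80137 transcripts and for FPKM summed over 18287 gene names. The model had 1 mean for each of 4 groups and used trended, robust moderation. P-values were adjusted by Benjamini and Hochberg. Tests of Itsn1-209, the Itsn1 sum and its long-form share were planned, but their p-values are not given because the values of Itsn1-209 chose the genes. Itsn2 values were compared by exact permutation tests, two-sided, where 4 against 4 mice give a p of 0.0286 at the least. The methods' Student's test on FPKM was an alternative. Nothing says that mice were from separate litters or batches, so p-values measure only the spread between these mice.

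Members and gene lists were chosen with earlier results of these data known. Named singly were members with a mean of at least 0.5 FPKM, Itsn1-209, called members, the 3 partner genes with the smallest p per comparison, the most and least abundant of each class, and the genes most alike. Depth came from FPKM steps at 1652 loci with a single transcript (fragment length 280 to 305 bases), where 89.5% to 94.0% of values were within 0.1 of a whole fragment. Depth and fragment length were picked to make this share high, so it is no check of them. At loci of 400 to 500 bases, which were not used in the estimate, the share was 33.3% to 91.4%. Intervals and floors cover counting error only. No 2 libraries were identical. Mouse numbers did not pair mice (median r of -0.00835 over 24 pairs). On simulated data limma recovered 93.5% of 200 transcripts changed by a factor of 4 in Ctrl vs. HC, among 80137 transcripts, and called 5.03% of unchanged ones. The simulated log values were normal, and the changed transcripts were drawn from those with a mean of at least 1 FPKM. The recovery therefore does not cover members under that mean or listed at 0 in many mice. Python 3.11.15, numpy 2.4.6, pandas 2.3.3, scipy 1.17.1 and matplotlib 3.10.9 were used.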

Additional observations from a re-analysis of the deposited data

Results flagged for a closer look

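In LH, the Itsn1 sum of replicate 3 was 8.62 FPKM, far below the 13.9 to 14.3 FPKM of the other LH mice. In LH, Itsn1-213 of replicate 4 was 6.15 FPKM, while the other LH mice were under 0.001 FPKM. Both were picked out because the gap to the nearest mouse exceeded Dixon's limit for 4 values, and 2 of 48 groups were picked out. The limit is meant to let chance pass about 5% of groups. That rate cannot hold where the other mice are near 0, as for Itsn1-213, because the gap is then the whole range. Itsn1-209 in LH, at 1.75e-05 FPKM or less, would exceed the limit by its values but was not picked out. The count of 2 is therefore not read against that rate. LH replicates 3 and 4 are the libraries with 10846 and 15504 transcripts listed at 0. The part of depth in the Itsn1 sum of replicate 3 or in Itsn1-213 of replicate 4 was not tested.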

How the results depend on the processing

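Of 316 values recomputed under alternatives, 266 kept their direction and their side of the threshold or moved by less than their spread, where a count of calls is judged by its size alone. For Ctrl against HC, the count of called members stayed within 1.5 times in 9 of 24 alternatives, and only 2 of those 9 called both transcripts reported. Between Ctrl and HC, 2 member transcripts were called as reported, 1 with a pseudocount of 0.01, 1 with a mean of at least 1 FPKM, 4 with median-ratio size factors, 1 with a replicate block, and 0 to 3 when 1 mouse was left out. Between NLH and Ctrl the count was 0, and 0 to 1 when 1 mouse was left out. Partner genes called between Ctrl and HC numbered 2, and 1 with a replicate block, 7 with only the 8 mice of the comparison, 5 by Student's test, 4 without LH replicates 3 and 4, and 0 to 3 with 1 mouse left out. Between NLH and Ctrl they numbered 5, and 10 without LH replicates 3 and 4, and 3 to 9 with 1 mouse left out. The shares over all gene sums in the fits without some mice are not given, so nothing about the partner genes is read from those counts. With a replicate block the Itsn1 long-form share differed by 3.90 points for Ctrl against HC and by 2.66 points for NLH against Ctrl. Without the decay transcript, an alternative added after seeing the data, the share differed by 7.1 points between Ctrl and HC and by 5.53 points between NLH and Ctrl. Itsn1-209, chosen on its Ctrl and NLH values, is in the denominator of these shares, so no p is given. With 1 mouse left out, the log2 difference of the Itsn1 sum ran from -0.06 to 0.16 for Ctrl against HC, from -0.39 to -0.13 for LH against Ctrl and from -0.29 to 0.01 for LH against NLH, and that of Itsn2 for NLH against Ctrl from -0.13 to 0.05. Reversals came without HC replicate 3 or Ctrl replicate 3 (-0.06 for Itsn1, Ctrl against HC), without Ctrl replicate 2 (0.04), Ctrl replicate 3 (0.05), NLH replicate 1 (0.02) or NLH replicate 4 (0.01) and with unnamed transcripts summed in, also added after seeing the data (0.07), for Itsn2 in NLH against Ctrl. Itsn1-209 in Ctrl against HC ran from -0.62 to 0.27, the last without Ctrl replicate 4, and the long-form share in NLH against Ctrl from -0.367 (without Ctrl replicate 3) to 6.31 points. Without LH replicates 3 and 4 the LH differences were 0.02 (Itsn1, against NLH), 0.09 (Itsn2, against Ctrl) and 0.11 (Itsn2, against NLH), and without LH replicate 3 that of Itsn1 against NLH was 0.01. For Itsn1-209, LH against Ctrl was -8.74 with a pseudocount of 0.01 and -2.46 with 1, and LH against NLH -8.06 and -1.90. The cause of these changes was not tested. All Itsn1 members have Ensembl identifiers, so that alternative equals the main value, and Itsn2 with 1 row has no share to test. Depth limits short transcripts most, since 1 fragment of Itsn1-209 is worth 0.162 to 0.323 FPKM.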
